A study of Mus musculus with 2 samples.

Results

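The terminal complement components are the plasma proteins that assemble into the membrane attack complex. Their 7 mouse genes are Hc, which encodes C5 (haemolytic complement), C6, C7, the 3 chain genes of C8 (C8a, C8b and C8g) and C9. They were taken by name, not by any measured value, and all 7 were found among the 43346 genes listed in the deposited tables, 21474 of them protein-coding.

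The levels come from 2 libraries of polyadenylated RNA from liver, labelled biological replicates 1 and 2 of a single group of adult C57BL/6J mice, a common inbred laboratory strain, aged 8 weeks, with no treatment named. The tissue is labelled as pooled from littermates of both sexes, the RNA as longer than 200 nucleotides, and the libraries as strand-specific pairs of 76-nucleotide reads. The libraries carry separate tissue identifiers and the same donor identifier, so their spread may be technical. With 1 group there is no contrast between conditions, and every ratio below sets replicate 1 over replicate 2 of that group.

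Complement is a cascade of plasma proteins, most of them secreted by the liver, that marks and destroys microbes. Its classical, lectin and alternative branches all lead to cleavage of C3 and then of C5. The larger C5 fragment binds C6 and C7, the trimer attaches to a membrane, C8 inserts into it, and C9 molecules join in a ring that forms the pore. C6, C7, the alpha and beta chains of C8, and C9 share the membrane attack complex and perforin (MACPF) fold. C5 is instead a relative of C3 and C4, and the gamma chain of C8 is a lipocalin, a family of carriers of small molecules. Terminal complement activity in plasma is known to be lower in female than in male mice.

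Replicate 1 was sequenced to 60770411 estimated reads and replicate 2 to 61688916. All 8 hepatocyte markers examined were present at 1 TPM (the deposited abundance unit, scaled by transcript length and library size) or more in both libraries, with a summed level of 83868 and 79127 TPM. The labelled pooling of both sexes was not seen in the reads of sex-linked genes. Over 1569 genes of the Y chromosome, replicate 1 held 0 reads and replicate 2 held 1 read, while Xist, the RNA of the inactive X chromosome, had 23.4 and 35.9 TPM. Genes known to be higher in male mouse liver, 8 listed after earlier values were seen, summed to 140 TPM in replicate 1, against 347 TPM in replicate 2. Another 8 known to be higher in female liver summed to 3304 and 1507 TPM, mostly through A1bg (1879 and 355 TPM). Single genes went the other way, Elovl3 of the male list with 3.50 and 2.40 TPM and Cyp2b9 of the female list with 260 and 533 TPM. The part of this difference between the libraries in the results below was not tested.

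The terminal genes together took 0.101% of all TPM in replicate 1 and 0.112% in replicate 2, or 1008 and 1117 TPM. They spanned a wide range. C8g was far above the rest, Hc, C8b, C9 and C8a formed a middle group, C6 was low, and C7 was below 1 TPM.

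Hc, the gene of the C5 precursor whose cleavage starts the terminal sequence, lies on chromosome 2 (GRCm38, chr2:34983331-35061438, minus strand). It had 101 TPM in replicate 1, against 119 TPM in replicate 2, on 12948 and 14871 reads. Replicate 2 was higher, and the mean of 110 ± 12.6 TPM (SD, n = 2) placed Hc at rank 1004 of 10505 protein-coding genes with a mean of 1 TPM or more. C3, the substrate one step earlier, stood 31.3 and 27.8 times above Hc in TPM in replicates 1 and 2. This level, rank and ratio count all transcript models of Hc. Models not typed as protein-coding carried 51.9% and 56.5% of its TPM, and the protein-coding models alone had 48.6 and 51.6 TPM.

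C6, which binds the larger C5 fragment first, is on chromosome 15 (chr15:4727175-4814967, plus strand). It had 2.57 TPM in replicate 1, against 5.30 TPM in replicate 2, on 337 and 680 reads. The mean was 3.94 ± 1.93 TPM (SD, n = 2), rank 7749 of the same 10505 genes. With all models of Hc counted, Hc was 39.3 times C6 in replicate 1 and 22.4 times C6 in replicate 2 on the TPM scale. C6 was thus the lowest of the members that reached 1 TPM, and the libraries were further apart for it than for any other such member.

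C7, which gives the growing complex its hold on the membrane, lies near C6 (chr15:4988762-5063740, minus strand). It had 0.19 TPM in replicate 1, against 0.10 TPM in replicate 2, on 23 and 12 reads. The exact 95% Poisson intervals were 0.119 to 0.281 TPM and 0.0499 to 0.169 TPM, and like all intervals here they cover counting error only. Replicate 1 was the higher, on few reads, and neither library reached 1 TPM. C6 over C7 was 13.5 in replicate 1 and 53.0 in replicate 2, ratios that rest on these few C7 reads. In bulk tissue, fewer cells of a type and less RNA per cell cannot be told apart, so the low level does not say which cells carried it. In humans a good part of plasma C7 is known to come from cells other than hepatocytes.

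C8a and C8b encode the alpha and beta chains of C8, and alpha is the chain that enters the membrane. They are neighbours on chromosome 4, C8b on the plus strand (chr4:104766317-104804548) and C8a on the minus strand (chr4:104815679-104876398). Their 3′ ends face each other across 11130 bases, with 0 protein-coding genes between them. C8a had 47.4 TPM in replicate 1, against 61.4 TPM in replicate 2, on 7732 and 10217 reads. C8b had 52.5 TPM in replicate 1, against 71.2 TPM in replicate 2, on 4677 and 6299 reads. Both were higher in replicate 2, and C8a over C8b was 0.904 in replicate 1 and 0.862 in replicate 2. Their means were 54.4 ± 9.86 TPM for C8a and 61.8 ± 13.2 TPM for C8b (SD, n = 2 each), at ranks 1738 and 1578.

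C8g encodes the gamma chain, which is bound covalently to alpha and is not needed for lysis in known assays. It lies on chromosome 2 (chr2:25498651-25501719, minus strand). It had 739 TPM in replicate 1, against 808 TPM in replicate 2, on 30423 and 35276 reads. At a mean of 774 ± 49.1 TPM (SD, n = 2) it ranked 161 among the 10505 genes. C8g made up 73.3% of the members' summed TPM in replicate 1 and 72.4% in replicate 2, and the other 6 genes summed to 269 and 309 TPM. Although the 3 chains are joined in 1 protein, C8g was 14.8 times the mean of C8a and C8b in replicate 1 and 12.2 times in replicate 2 on the TPM scale.

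C9, which polymerises into the pore, is on chromosome 15 (chr15:6445327-6498751, plus strand). It had 65.8 TPM in replicate 1, against 52.2 TPM in replicate 2, on 4393 and 3525 reads. The order was the opposite of that of the other members above 1 TPM, with the higher value in replicate 1. The mean was 59.0 ± 9.59 TPM (SD, n = 2), rank 1642, and C9 over C8a was 1.39 in replicate 1 and 0.850 in replicate 2.

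By mean TPM the order was C8g, Hc, C8b, C9, C8a, C6 and C7. The library ranges of C8g and Hc were separate (a ratio of means of 7.04), as were those of Hc and C8b (1.78), of C8a and C6 (13.8) and of C6 and C7 (27.1). Those of C8b and C9 overlapped, with a ratio of means of 1.05, and so did those of C9 and C8a, at 1.08. In replicate 1 C9 was above C8b and C8a, while in replicate 2 it was below both. These separations rest on 2 libraries, for which no test between genes was run.

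**Figure D1:**
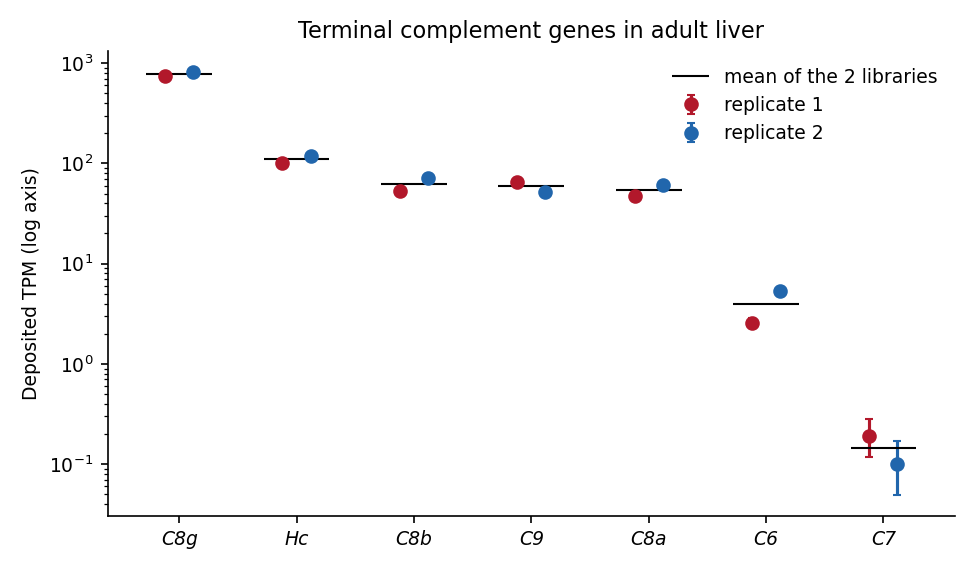
TPM of the 7 terminal complement genes on a log axis, with 1 point per library, exact 95% Poisson intervals of the reads as error bars (mostly smaller than the points) and the mean as a bar. C8g sits at 739 and 808 TPM, Hc, C8b, C9 and C8a between 47.4 and 119 TPM, C6 at 2.57 and 5.30 TPM and C7 at 0.19 and 0.10 TPM.

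The difference between the libraries was then set against counting error for each gene, with reads scaled by the trimmed mean of M-values (TMM) and a two-sided exact conditional binomial test, Benjamini-Hochberg adjusted over all 14533 genes with a sum of 20 reads or more. This test compares these 2 libraries and says nothing of conditions. At an adjusted p below 0.05, 6 of the 7 members differed, where 57.6% of all genes tested did. A single member, C9, was higher in replicate 1, a call made for 29.0% of all genes, and 5 were higher in replicate 2, a call made for 28.6%. At least 1.5-fold apart were 2 of the 7 members, C6 and C7, against 20.7% of all genes tested. Among the 5481 genes at a mean of 10 TPM or more, 8.50% were that far apart, and of the 5 members in that range, 0 were.

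C6 showed the largest difference among the members above 1 TPM, with 1.82-fold more scaled reads in replicate 2 (log2 ratio -0.87, 95% counting interval -1.06 to -0.68, adjusted p = 1.65e-19 by the exact test). C9 was 1.38-fold higher in replicate 1 (log2 ratio 0.46, exact test, adjusted p = 1.11e-44). The 2 neighbouring genes had nearly the same ratio, with C8a at a log2 ratio of -0.26 (exact test, adjusted p = 1.95e-31) and C8b at -0.28 (exact test, adjusted p = 9.98e-24).

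C8g and Hc were called on much smaller differences, because of their many reads. C8g had a log2 ratio of -0.07 (exact test, adjusted p = 4.9e-09) and Hc of -0.06 (exact test, adjusted p = 0.00342). With scaling by total reads and by spike-ins these ratios were -0.19 and -0.22 for C8g and -0.18 and -0.21 for Hc. C7 had a log2 ratio of 1.06 with a counting interval of 0.02 to 2.22, and an unadjusted p of 0.0409 by the exact test, and its adjusted p of 0.0683 missed the threshold. The median log2 ratio of the members was -0.07, against -0.003 over all genes tested, and the median size without regard to sign was 0.28, against 0.26. Over the genes at a mean of 10 TPM or more, the range that holds 5 of the 7 members, the median log2 ratio was 0.07 and the median size 0.19.

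**Figure D2:**
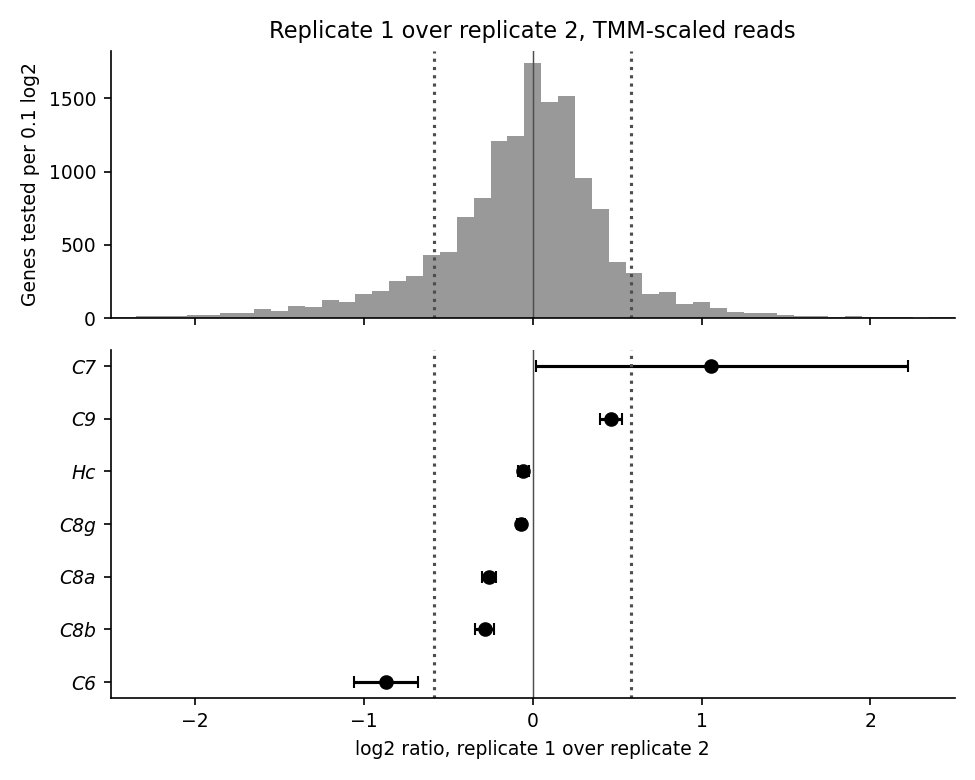
Above, the number of genes tested by log2 ratio of scaled reads, replicate 1 over replicate 2; below, the 7 members with their 95% counting intervals. Dotted lines mark 1.5-fold; C6 at -0.87 and C7 at 1.06 lie outside them, and the other 5 lie inside, from -0.28 for C8b to 0.46 for C9.

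Markers of other liver cells also differed between the libraries, and their part in the members' differences was not tested. By TMM, 29.0% of all genes tested were called higher in replicate 1 and 28.6% higher in replicate 2. Markers of the Kupffer cell, the resident macrophage of the liver, were higher in replicate 2 for 5 of 5 genes. Their sum was 67.4 TPM in replicate 1, against 116 TPM in replicate 2, the direction of Hc, C6, C8a, C8b and C8g. Of 5 sinusoidal endothelial markers 4 were higher in replicate 2, and their sum was 63.6 and 84.1 TPM. Mesothelial markers, of cells that cover the organ, were higher in replicate 1 for 3 of 3 genes, with a sum of 4.38 and 2.55 TPM, the direction of C9. With scaling by spike-ins 2 of the 3 passed. Hepatocyte markers were also called higher in replicate 1 for 7 of 8 genes by TMM, with a median log2 ratio of 0.18. With scaling by total reads 4 of the 8 were higher in replicate 1 and 3 in replicate 2. With scaling by spike-ins 4 were higher in replicate 1 and 4 in replicate 2. Of 8 markers of stellate cells and fibroblasts 5 were higher in replicate 2 and 1, Lrat, was higher in replicate 1, and the sum was 102 and 117 TPM. The 4 neutrophil and lymphocyte markers summed to 4.27 and 8.77 TPM, with 2 of the 3 tested higher in replicate 2. No marker of these lists was at 0 reads in both libraries.

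The transcript models behind each gene were read next, from the deposited percent of the gene's TPM per model. The same model led in both libraries for all 7 genes. C7 has 1 model, and C6-204 held 100% of C6 in replicate 1 and 95.6% in replicate 2. The other genes divided their TPM among several models, and short models weighed more in TPM than in reads because TPM is scaled by length.

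For Hc, the full-length model Hc-201 (5445 bases in 41 exons, 1680 codons) held 45.1% of TPM in replicate 1 and 43.1% in replicate 2, but 90.1% and 89.1% of the reads. Hc-203, a model of 655 bases with no coding frame, held 38.2% and 36.8% of TPM. Hc-202, a model of 694 bases that keeps an intron, held 13.7% and 19.5%. Models not typed as protein-coding thus carried 51.9% of Hc's TPM in replicate 1 and 56.5% in replicate 2 on 9.42% and 10.9% of its reads. With protein-coding models alone, Hc stood at 48.6 and 51.6 TPM, and its place above C8a, C8b and C9 was lost. C8b then had 42.5 and 58.0 TPM, and C9 had 64.5 and 50.2 TPM. These C9 values include C9-204, a partial model of 543 bases, with 20.3 and 15.3 TPM. By leading models alone, Hc-201 had 45.5 and 51.2 TPM. C9-201 (44.2 and 34.8 TPM) and C8a-202 (33.2 and 45.8 TPM) were below it in both libraries. C8b-201 (42.5 and 53.5 TPM) was below it in replicate 1 only.

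C8g-202, the leading C8g model (7 exons, 202 codons), held 62.8% of TPM in replicate 1 and 73.6% in replicate 2. Most of the rest went to 2 models without a coding frame that each keep a short intron near the 3′ end. C8g-207 keeps the 70-base intron between the fifth and the sixth exon, and had 140 TPM in replicate 1, against 77.9 TPM in replicate 2. C8g-204 keeps the 81-base intron between the sixth and the last exon, and had 118 and 120 TPM. C8g-207 was 1.93-fold higher in replicate 1 by scaled reads (4455 against 2546 estimated reads, with deposited posterior SDs of 176 and 142 reads), whereas C8g as a whole was slightly higher in replicate 2. The kept introns are shown, on the transcribed strand, with the splice-site bases GT and AG at their ends in capitals, because C8g-202 lacks them. The 2 models also begin further downstream than C8g-202, and C8g-205, a minor model, keeps both introns. They lie at chr2:25498944-25499013 and chr2:25498824-25498904 on the minus strand of GRCm38, and the sequences are those of the GENCODE transcripts.
C8g intron kept in C8g-207: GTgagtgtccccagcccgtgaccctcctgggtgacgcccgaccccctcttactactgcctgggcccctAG
C8g intron kept in C8g-204: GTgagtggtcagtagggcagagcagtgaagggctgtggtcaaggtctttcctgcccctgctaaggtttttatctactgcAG

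C8a was split between C8a-202 (11 exons, 587 codons), with 70.0% of TPM in replicate 1 and 74.6% in replicate 2, and C8a-203, with 25.9% and 23.5%, while C8a-201 held 4.06% and 1.95%. C8a-203 lacks the second exon of C8a-202, a stretch of 94 bases at chr4:104865454-104865547 on the minus strand, whose letters follow. The 2 models share nearly all of their other sequence, and their reads carried deposited posterior SDs of 162 reads for C8a-202 and 159 reads for C8a-203 in replicate 1.
C8a exon absent from C8a-203: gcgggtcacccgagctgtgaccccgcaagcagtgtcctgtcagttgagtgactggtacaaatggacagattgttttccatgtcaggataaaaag

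For C8b, C8b-201 (12 exons, 589 codons) held 81.0% of TPM in replicate 1, against 75.2% in replicate 2, and C8b-203, a model of 1061 bases with no coding frame, held 19.0% and 18.5%. C8b-202 was listed at 0 in replicate 1 and at 6.31% in replicate 2, with posterior SDs of 30.5 and 97.1 reads. For C9, C9-201 (11 exons, 561 codons) held 67.3% and 66.8% of TPM, and C9-204, a partial model of 543 bases from the 3′ part of the gene, held 30.8% and 29.4%. In reads, C9-201 averaged 91.0% of C9.

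**Figure D3:**
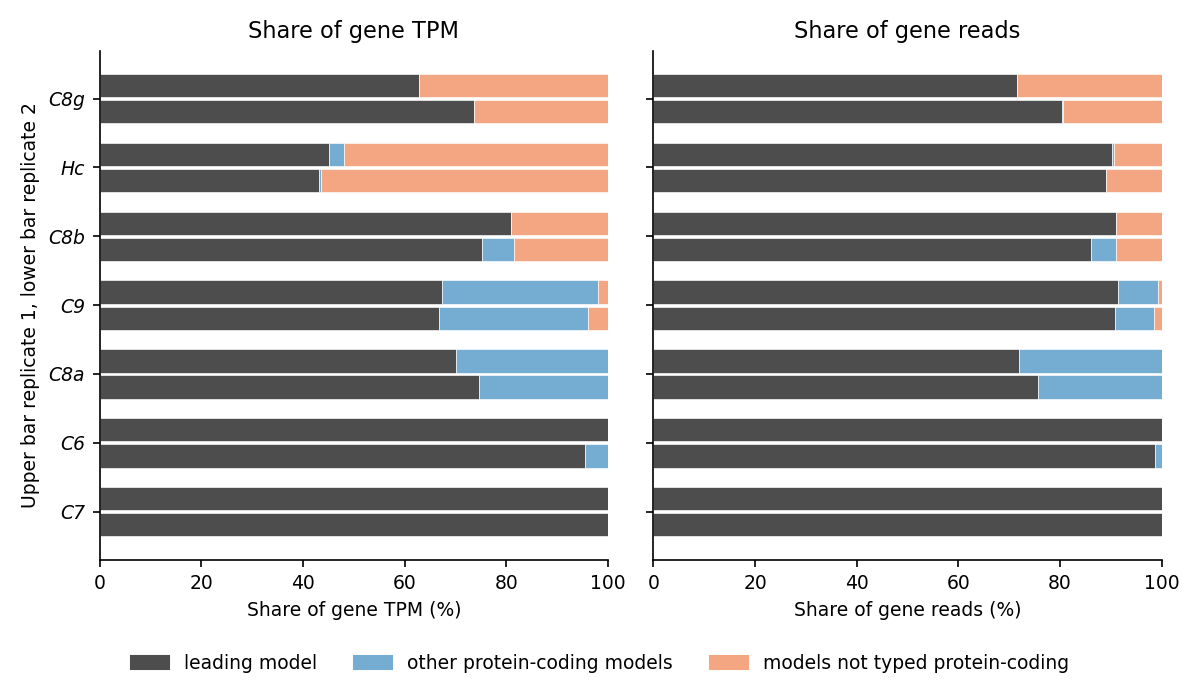
Share of each gene's TPM (left) and of its estimated reads (right) by transcript model, in percent, with the upper bar of each pair for replicate 1 and the lower for replicate 2. Hc shows the widest gap between the scales, with 45.1% and 43.1% of TPM but 90.1% and 89.1% of reads in its leading model.

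At the gene level, the deposited posterior SD of the read estimate was 0 reads for all 7 members in both libraries, so by these estimates none shared reads with another gene. Fbxw5, on the opposite strand, overlaps C8g by 970 bases and had 16.3 and 16.2 TPM. Genes on the opposite strand within Hc, C7 and C8a held 0 reads in both libraries.

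The exon lengths of the members were also compared. Among the leading models, 3 exon lengths recurred in 4 or more members, a pattern noticed when the lengths were listed. An exon of 241 bases is held by C6, C8a, C8b and C9, and by 1.67% of 7962 protein-coding genes with 10 or more exons in their longest coding model. An exon of 145 bases is held by C6, C7, C8a and C9, and by 9.19% of those genes. An exon of 133 bases is held by C6, C7, C8b, C9 and also by Hc, which lacks the fold, and by 9.92% of those genes, so a shared length alone says little for that size. The rarest, of 241 bases, was compared letter by letter. Without gaps, the identity of these 4 exons was between 41.9% (C6 and C9) and 49.8% (C6 and C8a), and 22.8% of positions were the same in all 4, shown in capitals. The exons lie at chr15:4763342-4763582 (plus) in C6, chr4:104845895-104846135 (minus) in C8a, chr4:104790475-104790715 (plus) in C8b and chr15:6486621-6486861 (plus) in C9. Hc, C8g and C7, which has the fold, have no exon of this length.
C6: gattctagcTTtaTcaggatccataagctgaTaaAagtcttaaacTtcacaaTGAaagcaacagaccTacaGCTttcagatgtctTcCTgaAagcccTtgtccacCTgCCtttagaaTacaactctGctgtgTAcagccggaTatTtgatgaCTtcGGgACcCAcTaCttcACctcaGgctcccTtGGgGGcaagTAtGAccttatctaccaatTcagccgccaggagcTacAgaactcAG
C8a: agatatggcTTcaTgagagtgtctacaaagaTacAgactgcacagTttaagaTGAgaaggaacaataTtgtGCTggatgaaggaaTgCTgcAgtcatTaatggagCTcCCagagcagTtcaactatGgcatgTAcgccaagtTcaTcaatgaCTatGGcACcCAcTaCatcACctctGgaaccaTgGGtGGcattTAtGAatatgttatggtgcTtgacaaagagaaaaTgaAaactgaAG
C8b: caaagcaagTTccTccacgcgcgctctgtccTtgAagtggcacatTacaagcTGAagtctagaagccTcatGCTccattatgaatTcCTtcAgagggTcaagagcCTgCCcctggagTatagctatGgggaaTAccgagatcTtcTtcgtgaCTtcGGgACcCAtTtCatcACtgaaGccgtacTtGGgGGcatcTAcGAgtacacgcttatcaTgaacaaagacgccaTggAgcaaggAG
C9: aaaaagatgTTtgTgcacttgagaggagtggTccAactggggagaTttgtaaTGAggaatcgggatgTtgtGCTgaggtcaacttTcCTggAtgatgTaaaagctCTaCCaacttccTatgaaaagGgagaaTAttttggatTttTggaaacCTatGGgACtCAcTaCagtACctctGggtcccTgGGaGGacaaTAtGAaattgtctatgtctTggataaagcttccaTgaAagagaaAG

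The promoters were read for 3 motifs, those of the TATA box and of the C/EBP and HNF4 factors of hepatocytes, in RefSeq windows of GRCm38.p6 from 250 bases before to 50 after each annotated start, on both strands. The 7 genes have 8 windows, with 2 for C8g. TTGCNNAA, a C/EBP motif found in 10.8% of 32851 mouse windows, occurs in C9 alone among the members, 132 bases upstream. The TATA box motif TATAAA, in 13.6% of windows, was found in Hc 239 bases upstream, on the strand of the gene. In C7 it was found from 6 bases upstream, on the opposite strand only. Whether either match acts as a TATA box was not tested. These distances are from the RefSeq start, which can differ from that of the leading model. C7-201 starts further downstream, at chr15:5063740, so the match lies further upstream of that start. The HNF4 motif CAAAGTCC, in 1.42% of windows, was in 0 of the 8, and C6, C8a, C8b and C8g held none of the 3 motifs.

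A motif match is a description and not a bound site. The windows of the members other than C8g were also below the median GC of 52.7%, from 34.7% in Hc to 50.3% in C8b. The 2 windows of C8g were above it, at 54.3% and 57.7%. The part of base composition in the matches was not tested. The windows with a match are shown, with the motif in capitals, on the strand of the gene. TATAAA reads as TTTATA where the match is on the other strand. They are chr2:35061363-35061662 (minus) for Hc, chr15:5063724-5064023 (minus) for C7 and chr15:6445096-6445395 (plus) for C9.
Hc promoter: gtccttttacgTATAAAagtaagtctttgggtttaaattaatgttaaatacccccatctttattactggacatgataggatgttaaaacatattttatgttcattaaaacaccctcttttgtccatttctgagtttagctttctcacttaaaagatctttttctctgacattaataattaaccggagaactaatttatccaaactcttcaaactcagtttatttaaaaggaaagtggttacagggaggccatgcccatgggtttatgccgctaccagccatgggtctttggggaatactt
C7 promoter: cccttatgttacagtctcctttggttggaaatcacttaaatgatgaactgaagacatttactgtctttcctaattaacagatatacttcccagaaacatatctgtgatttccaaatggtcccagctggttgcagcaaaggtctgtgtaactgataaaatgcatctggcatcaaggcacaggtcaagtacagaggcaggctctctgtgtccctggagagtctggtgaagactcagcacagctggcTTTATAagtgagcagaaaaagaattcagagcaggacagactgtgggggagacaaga
C9 promoter: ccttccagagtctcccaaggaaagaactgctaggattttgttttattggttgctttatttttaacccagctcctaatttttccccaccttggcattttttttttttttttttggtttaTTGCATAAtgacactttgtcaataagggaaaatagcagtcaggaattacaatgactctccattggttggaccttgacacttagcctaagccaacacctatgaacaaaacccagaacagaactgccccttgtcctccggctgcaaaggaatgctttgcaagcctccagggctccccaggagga

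The 2 windows of C8g lie at chr2:25501670-25501969 and chr2:25500457-25500756 on the minus strand. The upstream start is that of C8g-201, which held 0.10% of C8g's TPM in replicate 1 and 0.06% in replicate 2, so nearly all C8g signal was assigned to models that begin further downstream.

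Of the hepatocyte transcription factors, Cebpa, which encodes a C/EBP protein, had 325 and 298 TPM and Hnf4a 263 and 224 TPM in replicates 1 and 2. Onecut1 had 9.32 TPM in replicate 1, against 27.7 TPM in replicate 2 (log2 ratio -1.47), and was past 1.5-fold.

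The other genes of the pathway were set beside the members, with the lists of their roles. Of the inhibitors that keep the complex off the body's own membranes, those secreted into plasma had higher TPM than any terminal component. Vtn, which encodes vitronectin, had 2658 and 2687 TPM in replicates 1 and 2, Clu, which encodes clusterin, had 1634 and 1940 TPM, and both proteins bind the complex in plasma. Cd59a and Cd59b, membrane proteins that stop C9 from joining, had 33.2 and 24.7 TPM and 23.6 and 15.3 TPM in replicates 1 and 2. Their reads were much further apart, 2206 and 1720 for Cd59a and 324 and 225 for Cd59b, because TPM is scaled by length. All 4 inhibitors were called higher in replicate 1 by TMM-scaled reads, a call made for 29.0% of all genes tested. Their median log2 ratio was 0.30, and Cd59b was past 1.5-fold at 0.67. With scaling by total reads or spike-ins, Vtn and Clu were instead called higher in replicate 2, and their TPM was also higher there.

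The receptors of the C5a peptide, cut from the Hc product, were low, near 1 TPM, on 83 and 78 reads for C5ar1 and 122 and 198 for C5ar2. C5ar1 had 0.73 and 0.69 TPM and C5ar2 had 0.77 and 1.24 TPM in replicates 1 and 2. Only C5ar2 passed the test, and it was higher in replicate 2.

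Of 15 genes that start the classical and lectin branches, 9 were higher in replicate 2, 2 were higher in replicate 1 and 4 did not pass the test. Their median log2 ratio was -0.21. Of all genes tested, 28.6% were called higher in replicate 2 and 29.0% in replicate 1. With scaling by total reads 11 of the 15 were higher in replicate 2 and 1 in replicate 1, and with spike-ins 12 and 1. Both scalings also moved the calls over all genes towards replicate 2. The most abundant by TPM were the protease gene Masp2 (597 and 714 TPM), C4b (470 and 639 TPM) and Mbl2, a mannose-binding lectin (359 and 383 TPM). In reads C4b led that list, with 108881 and 147057, against 21982 and 28098 for Masp2. This order differs from that by TPM because TPM is scaled by length. C1qa, made by macrophages, was the 1 member of that list past 1.5-fold (log2 ratio -0.61). C1qb and C1qc fell just short of it, each with a log2 ratio of -0.57. In the list of C3 and the alternative pathway, C3 had 3165 and 3299 TPM and Cfb, its protease partner, 639 and 609 TPM. By TMM 3 of these 4 genes, C3, Cfb and Cfd, were higher in replicate 1 and Cfp, properdin, was higher in replicate 2. C3 was instead called higher in replicate 2 with scaling by total reads or spike-ins, and Cfb with scaling by spike-ins. Cfp (log2 ratio -0.76) and Cfd (1.99, on 30 and 8 reads) were past 1.5-fold.

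Of 9 complement regulators, of the C3 and C5 convertases and of other steps, 3 were higher in replicate 1, 2 were higher in replicate 2 and 4 did not pass. Those calls were made for 29.0% and 28.6% of all genes tested. With scaling by total reads 3 of the 9 were higher in replicate 1 and 5 in replicate 2, and with spike-ins 2 and 5. Serping1, the C1 inhibitor, had 821 and 889 TPM, Cpn1 302 and 289 TPM and Cpn2 239 and 226 TPM, the last 2 being the subunits of the carboxypeptidase that trims C5a. Cd55, decay-accelerating factor, was past 1.5-fold (log2 ratio -0.66). Of 7 other genes of the MACPF fold, 3 had enough reads to be tested and 3 held 0 reads in both libraries. Mpeg1, perforin-2 of macrophages, led them with 5.08 TPM in replicate 1, against 6.41 TPM in replicate 2 and was higher in replicate 2.

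**Figure D4:**
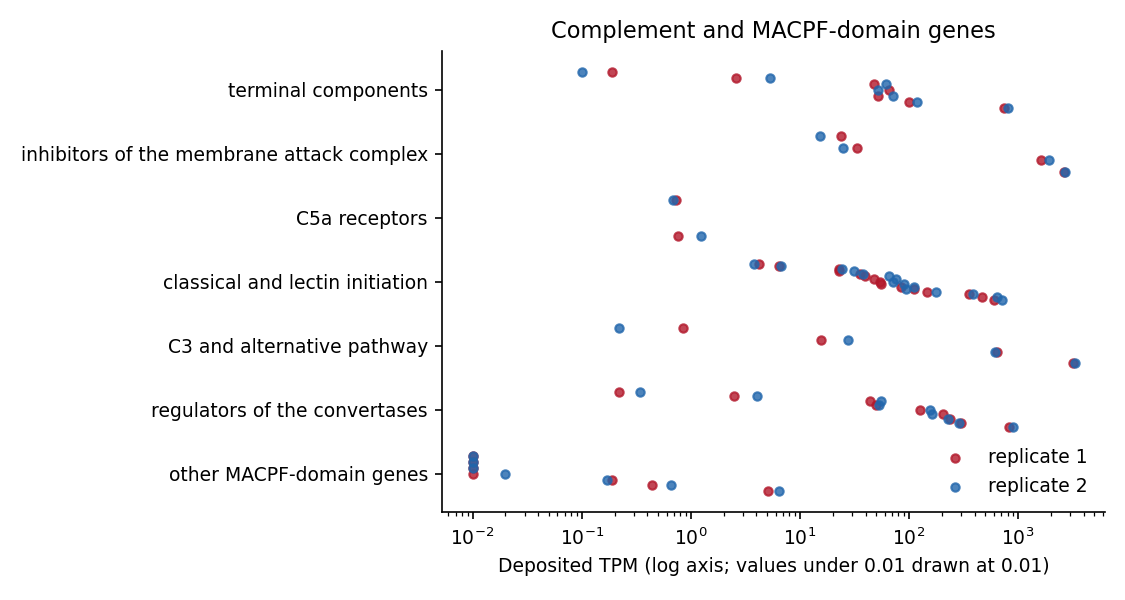
TPM of complement and MACPF genes by list on a log axis, with 1 point per gene and library. The terminal components run from 0.10 TPM for C7 to 808 TPM for C8g, below the 2658 and 2687 TPM of Vtn and the 3165 and 3299 TPM of C3.

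The protein-coding gene nearest in level to each member, by Euclidean distance in log2(TPM + 0.1) over the 2 libraries, was Nit1 for Hc (distance 0.0124), Fermt3 for C6 (0.0275), Tssk4 for C7 (0), Colgalt1 for C8a (0.0285), Hbb-bt for C8b (0.0327), Ddt for C8g (0.0482) and Nfu1 for C9 (0.0144). Within 0.1 of each member lay between 3 genes, for C8g, and 22, for C7. With 2 libraries of 1 group this is a likeness of level alone.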

How the data were processed

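Gene and transcript tables of 2 liver libraries on mm10 with GENCODE M4 were used, per the deposited notes. Aligner and quantification tool: not given in the sources used here. In these tables the deposited estimated counts are reads per gene or transcript that need not be whole. The deposited TPM values are scaled by effective length over all entries, spike-ins included, and the deposited FPKM values by length and depth. The percent per transcript gives, per the file headers, what each model contributes to its gene. The authors' posterior standard deviation is a score of how far reads shared between entries leave an estimate uncertain. Symbols, models and coordinates were read from GENCODE M21 (GRCm38, equal to mm10) for 42462 of 43346 genes matched by identifier, so a model revised after M4 may differ. Splice junction and contig lists on mm9 were not used here.

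Counts were rounded, spike-ins were set aside, and TMM factors were computed with edgeR 4.0.16 in R 4.3.3. For genes with 20 reads or more over both libraries, the split of reads was compared with the ratio of scaled depths (exact binomial, two-sided), adjusted by Benjamini-Hochberg with a threshold of 0.05, a step tested on simulated data. A prior of 0.5 reads entered log2 ratios, which can differ from TPM ratios where effective length differed. Alternatives were scaling by DESeq2 1.42.0 size factors, total reads or spike-ins, minimums of 1 and 100 reads, ratios of TPM or FPKM, reads over annotated length, TPM without spike-ins, mitochondrial and small RNA genes, and protein-coding models only. All 7 members were named, with up to 3 of the most abundant genes of each list, those past 1.5-fold, and the nearest gene in level. The members and lists were chosen with earlier results of these data known. Some items that the rule selects are not reported here.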

Additional observations from a re-analysis of the deposited data

How the results depend on the processing

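The count of 6 members called held under scaling by DESeq2 size factors, total reads and spike-ins and with minimums of 1 and 100 reads, and each member tested kept the sign of its ratio under these. Over all genes, calls numbered 8370 with TMM and between 7700 and 8701 under these alternatives. The share of calls that were higher in replicate 1 was 50.3% by TMM, 30.7% by total reads and 26.3% by spike-ins, and total reads and spike-ins moved the median of all genes to -0.13 and -0.15. Beside these, the median log2 ratio of the members was -0.19 with total reads and -0.22 with spike-ins. It was -0.23 and -0.22 as ratios of the deposited TPM and FPKM. With at least 100 reads C7 was not tested, the median was -0.16, and 1 member was past 1.5-fold. With protein-coding models alone C8g over the mean of C8a and C8b averaged 10.2 and the members summed to 746 TPM, against 13.5 and 1063 TPM with all models. Without spike-ins, mitochondrial and small RNA genes the sum was 1193 TPM. Leaving out a library gives no ratio between libraries, while C8g over the mean of C8a and C8b ranged from 12.2 to 14.8 and the sum from 1008 to 1117 TPM. No paired analysis was possible because there is 1 group. Depth limits C7, with 23 and 12 reads.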
